A study of Homo sapiens with 12 samples.

Results

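Nucleoporins and nuclear transport receptors were followed in K562 cells treated with the USP7 inhibitor FT671. The members were the protein-coding genes whose symbols begin with NUP and a digit, KPNA or KPNB, IPO, XPO or TNPO, apart from 1 exportin that is not reported here. They comprised 46 of the 60609 genes listed, 23 nucleoporins and 23 transport receptors. K562 is an established human cell line of erythroid character that was derived from a chronic myeloid leukemia. FT671 blocks USP7, an enzyme that takes ubiquitin off other proteins. The comparison was between 3 cultures given 10 μM FT671 and 3 given the solvent DMSO, each for 48 h, and the study made it to see how USP7 inhibition changes gene expression in leukemic cells. Total RNA was depleted of ribosomal RNA before sequencing, and the values are numbers of reads per gene. All the cultures come from a single cell line, so p-values measure the spread between cultures of that line.

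The nuclear pore complex is a ring-shaped channel through the nuclear envelope, built from many copies of proteins called nucleoporins. Scaffold nucleoporins form an outer and an inner ring, and nucleoporins with phenylalanine-glycine repeats fill the channel. Transport receptors of the importin beta family, with importin alpha as an adaptor for classical import signals, carry cargo through these repeats, and the GTPase RAN sets the direction by its nucleotide state on each side of the envelope. K562 cells are known to carry a fusion of NUP214 to XKR3, and counts per gene do not separate the fusion from intact NUP214.

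Expression of the pore and its receptors moved in both directions and by small amounts. Of the 46 members, 43 passed the filter on low counts and were tested. Of these, 5 were lower in FT671-treated cells (11.6%) and 13 were higher (30.2%) at an adjusted p of 0.05, by the quasi-likelihood test of edgeR, with p-values adjusted (Benjamini-Hochberg) across the 13895 genes that passed the filter. Among all genes tested, 26.5% were lower and 23.6% higher. At an adjusted p of 1e-05 no member was called, 0 lower against 4.13% of all genes and 0 higher against 1.79%. At an unadjusted p below 0.05, 5 members were lower and 14 higher. The shares of all genes at that threshold were not computed, so these counts are not read as a result on the members. DESeq2's Wald test called 1 lower and 3 higher at an adjusted p of 1e-05, beside 8.44% and 6.33% of all genes in that test. The members that changed most were NUP50 (lower), IPO13 (lower), NUP155, NUP93 and KPNA5 (all higher). These are the only 5 members with a log2 fold change of at least 0.5 in size, 11.6% of those tested against 36% of all genes. No member changed by as much as 1 on the log2 scale, as 10.6% of all genes did. The median log2 fold change was 0.0077 over the members and -0.010 over all genes. NUP50, IPO13, TNPO3, NUP93, NUP155, NUP43, NUP107, TNPO2 and XPOT kept their call under all 17 alternative settings of the analysis, and the other 9 called members lost it under at least 1.

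Depth and the libraries bear on these counts. The counts totaled between 4555220 and 14250500 per library, and 3 counts, taken as the smallest detectable level, equal 0.211 to 0.659 CPM, the usual depth-scaled read count, here from the unscaled library totals. Levels of genes are CPM with library sizes scaled by TMM, a factor for RNA composition. These floors cover counting error only. Members held between 0.854% and 0.996% of the counts, with the highest share in DMSO replicate 3. That library was the highest DMSO library for 34 of the 43 members, with a median log2 difference of 0.22 from the mean of the other DMSO libraries. The same was not computed over all genes, so this shift is not shown to be particular to the members. With DMSO replicate 3 left out, 5 members were lower and 18 higher at 0.05, beside 27.5% and 25.7% of all genes. At 1e-05, 2 members were then lower and 8 higher, beside 10.1% and 7.42% of all genes, so calls over all genes also became more frequent. Of the K562 markers, 9 of 10 were above 1 CPM in every library (their sum was 1280 to 1317 CPM in DMSO and 1154 to 1196 CPM in FT671), and HBE1 was near the floor. The 14 markers of other cell types summed to 104 to 106 CPM in DMSO and 134 to 137 CPM in FT671, mostly EPCAM, CD3D and PECAM1, while CD2, MS4A1 and ELANE were at 0. In bulk RNA, fewer cells of a kind and less RNA per cell cannot be told apart. The part of these shifts in the results on the members was not tested.

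**Figure D1:**
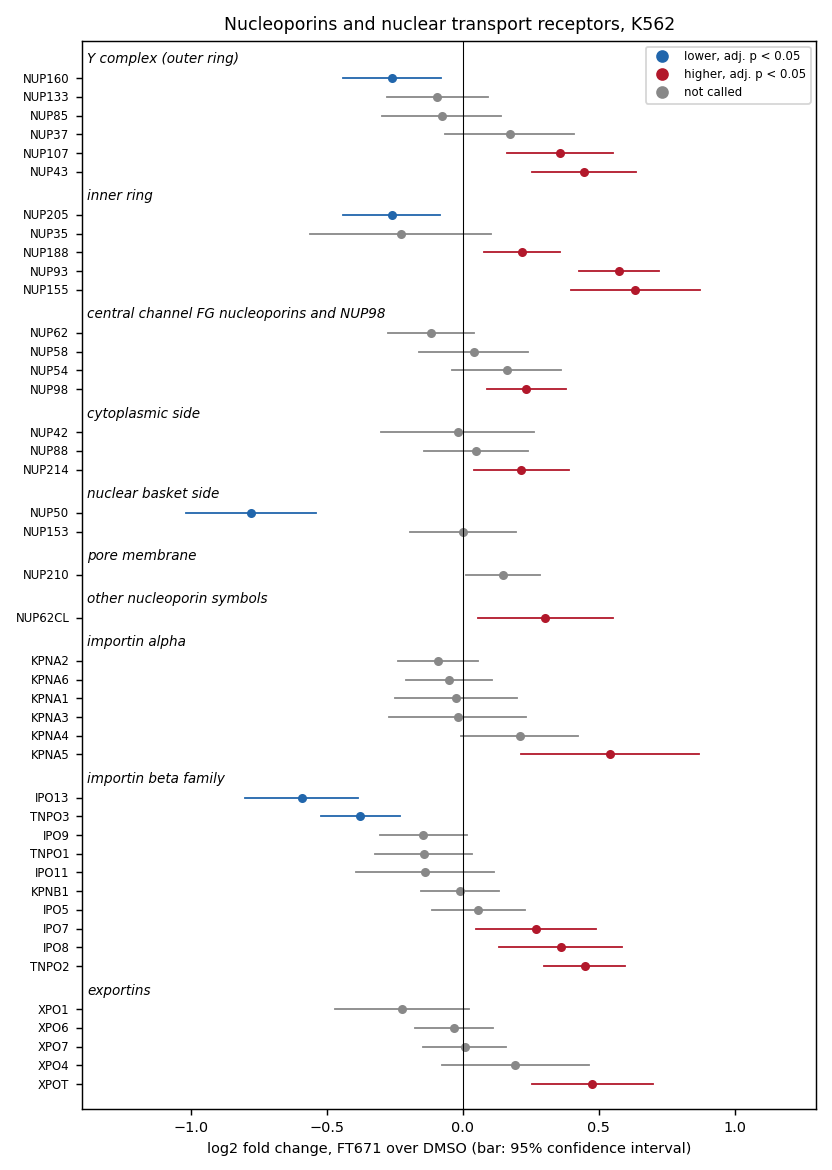
Log2 fold change of FT671 over DMSO (x axis) for the 43 members tested (y axis, by role), with 95% confidence intervals. Blue members were lower and red ones higher at an adjusted p of 0.05; NUP50 at -0.78 and NUP155 at 0.63 are the extremes.

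The 150 bases before the annotated start are shown for the 2 members with the lowest and the 2 with the highest log2 fold change, since these carry the comparison. They are on the gene's own strand, from RefSeq's promoter table (GRCh38.p14), and capitals mark motifs searched for on both strands.
NUP50 (chr22:45163775-45163924, plus strand): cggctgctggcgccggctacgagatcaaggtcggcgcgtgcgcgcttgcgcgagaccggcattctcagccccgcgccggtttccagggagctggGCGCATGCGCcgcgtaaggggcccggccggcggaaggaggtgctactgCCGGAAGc
IPO13 (chr1:43946800-43946949, plus strand): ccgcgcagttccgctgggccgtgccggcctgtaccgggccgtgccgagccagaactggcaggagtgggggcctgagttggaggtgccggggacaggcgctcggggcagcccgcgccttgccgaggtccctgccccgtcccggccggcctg
NUP93 (chr16:56729979-56730128, plus strand): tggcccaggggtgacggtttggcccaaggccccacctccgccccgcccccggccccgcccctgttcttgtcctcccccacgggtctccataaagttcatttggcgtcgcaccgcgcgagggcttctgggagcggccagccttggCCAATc
NUP155 (chr5:37371107-37371256, minus strand): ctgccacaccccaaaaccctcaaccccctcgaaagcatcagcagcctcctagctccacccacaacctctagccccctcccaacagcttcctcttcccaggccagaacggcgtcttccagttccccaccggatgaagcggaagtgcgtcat
The capitals mark an NRF1 motif (GCATGCGC, matched in overlapping positions on both strands) and an ETS motif (CCGGAAG) before NUP50, and a CCAAT box before NUP93. An E-box of NUP50 lies further upstream and is not shown. NUP50 and NUP93 have other windows at later starts, which are not shown. Over the whole window of 250 bases before to 50 after the start, 40 of the 46 members had an entry, 11 of them with several windows, giving 52 windows. No entry was found for NUP43, KPNA4, KPNA5, KPNA7, KPNB1 and XPO7. The ETS motif was in 13 of the 52 member windows (25.0%) and in 10.3% of all 35116 windows, and the CCAAT box was in 26 (50%) against 34.6%. The other motifs searched were in 1 to 7 member windows each: the E-box CACGTG in 13.5% against 7.26% of all windows, CRE (TGACGTCA) in 9.62% against 1.85%, NRF1 in 7.69% against 3.05%, YY1 (AAGATGGCG) in 7.69% against 1.75%, and E2F (TTTCCCGC or TTTGGCGC) in 1.92% against 2.27%. The member with the E2F letters was NUP155, where they lie after the start. Among matched and tested members with an ETS motif, 3 were lower, 3 higher and 6 not called, and for the CCAAT box these numbers were 1, 6 and 13. Among all 40 members with an entry, 5 were lower and 11 higher. Whether the calls differ with a motif was not tested. A match describes the letters only and is not a bound site.

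NUP50 showed the largest change of all the members. Its product sits on the nuclear basket side, where it binds importin alpha and NUP153 and takes part in the release of imported cargo. NUP50 (chr22:45163925-45188017 in hg38) was at 43.1, 36.1 and 44 CPM in DMSO replicates 1, 2 and 3 and at 23.5, 24.7 and 23.3 CPM in FT671 replicates 1, 2 and 3. Every FT671 library was below every DMSO library. The level fell by 41.8%, a log2 fold change of -0.78 ± 0.11 (SE, n = 3 per group, adjusted p = 6.08e-05 by edgeR). NUP153, a repeat nucleoporin that anchors the basket and binds NUP50, was at 263, 247 and 323 CPM in DMSO and 275, 266 and 288 CPM in FT671. Its groups overlapped, with a log2 fold change of 0.00065 and a 95% interval from -0.20 to 0.20. The log2 ratio of NUP50 to NUP153 was -2.75 ± 0.13 in DMSO and -3.53 ± 0.10 in FT671 (SD, n = 3 each), a difference of -0.78. An exact permutation test gave p = 0.1, the smallest that 3 libraries against 3 allow (0.13 after adjustment over the 4 gene pairs compared in this way, which were chosen after their values were seen). NUP153-AS1, on the opposite strand, covers 10.6% of the exon length of NUP153, and strand use in the counting is not given in the sources used here.

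Inner ring genes moved apart from each other. This ring is built around NUP93, which holds together NUP155, NUP35 and the large paralogs NUP188 and NUP205. Of its 5 genes, 3 rose (60%) while NUP205 fell (20%), beside 23.6% higher and 26.5% lower of all genes. NUP155 (chr5:37288137-37371106) was at 166, 154 and 223 CPM in DMSO and 273, 284 and 281 CPM in FT671. All FT671 libraries were above all DMSO libraries, and DMSO replicate 3 was the highest of its group. NUP155 rose by 0.63 ± 0.11 on the log2 scale (SE, adjusted p = 0.00031), and by 0.80 without DMSO replicate 3. NUP93 (chr16:56730118-56850286) was at 142, 138 and 133 CPM in DMSO and 211, 200 and 205 CPM in FT671. The groups were far apart relative to their SDs of 4.25 and 5.57 CPM, and NUP93 had the smallest adjusted p of all members (log2 fold change 0.58 ± 0.07 SE, adjusted p = 1.31e-05). NUP188 rose less, by 0.22 (adjusted p = 0.0124), with every FT671 library above DMSO, and was not called without FT671 replicate 2 or 3. NUP205 (chr7:135557917-135648757), the member of this ring with the highest level per length, was at 418, 384 and 480 CPM in DMSO and 344, 350 and 373 CPM in FT671. It fell by 0.26 on the log2 scale (adjusted p = 0.0176) with no overlap of the groups, and lost the call when expression was corrected for gene length (-0.13, adjusted p = 0.13), or when FT671 replicate 1 or 2 was left out. The log2 ratio of NUP188 to NUP205 was -0.67 ± 0.18 in DMSO and -0.19 ± 0.04 in FT671 (SD, n = 3 each, exact permutation p = 0.1, adjusted p = 0.13). Since NUP188 lay wholly above DMSO and NUP205 wholly below, this ratio could not overlap. The pair was chosen after its values were seen, and its test adds no support. NUP35 had a log2 fold change of -0.23 and was not called (adjusted p = 0.24).

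The Y complex, the scaffold of the outer rings on both faces of the pore, also held members of either direction. Of its 6 genes, NUP43 and NUP107 rose, NUP160 fell, and NUP37, NUP85 and NUP133 were not called. Rises made up 33.3% and falls 16.7% of the group, beside 23.6% and 26.5% of all genes. NUP43 (chr6:149724315-149749665) had both the largest change and the highest level per length of the group. It was at 110, 107 and 129 CPM in DMSO and 144, 168 and 158 CPM in FT671, without overlap, and rose by 0.45 ± 0.09 on the log2 scale (SE, adjusted p = 0.000858). The opposite-strand gene PCMT1 overlaps 5.02% of the exon length of NUP43, and its own log2 fold change was 0.18. NUP107 rose by 0.36 (adjusted p = 0.00494), with all FT671 libraries above DMSO. NUP160 fell by 0.26 (adjusted p = 0.0195), with all FT671 libraries below DMSO, and like NUP205 it was not called after the correction for gene length (adjusted p = 0.18) or without FT671 replicate 1 or 3. The uncalled members had log2 fold changes of 0.17 (NUP37), -0.08 (NUP85) and -0.09 (NUP133).

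In the channel and on the cytoplasmic side the called changes were rises of about the same size. NUP98, a mobile repeat nucleoporin whose gene also encodes the Y complex protein NUP96, was at 383, 375 and 390 CPM in DMSO and 428, 449 and 472 CPM in FT671. All FT671 libraries were above DMSO (log2 fold change 0.23 ± 0.07 SE, adjusted p = 0.0104), and the call was lost without FT671 replicate 3. The counts do not separate NUP98 from NUP96. The trimer of NUP62, NUP58 and NUP54 that lines the channel was not called, at log2 fold changes of -0.12, 0.04 and 0.16. For NUP62 the opposite-strand gene ATF5, which fell by 1.23 on the log2 scale, covers 9.38% of the exon length. NUP214, which with NUP88 forms the docking site for export complexes, was at 1242, 1310 and 1486 CPM in DMSO and 1473, 1519 and 1690 CPM in FT671. FT671 replicate 1 lay below DMSO replicate 3, so the groups overlapped. NUP214 was higher by 0.21 ± 0.08 on the log2 scale (SE, adjusted p = 0.0411), lost the call in 6 of the 17 alternatives, and gave 0.28 without DMSO replicate 3. It was not called without DMSO replicate 1 or 2 or FT671 replicate 2 or 3. A lncRNA on its opposite strand (ENSG00000236986, 3.06% of the exon length) had a log2 fold change of 0.36. NUP88 and NUP42, a partner of the messenger export factor GLE1, were not called (0.05 and -0.02), and RABEP1, on the opposite strand, covers 31.7% of the exon length of NUP88.

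The remaining nucleoporins were the membrane protein NUP210 and genes named for similarity. NUP210, a glycoprotein that crosses the membrane around the pore, was at 707, 706 and 726 CPM in DMSO and 808, 791 and 772 CPM in FT671. The groups did not overlap, but the change of 0.15 ± 0.06 on the log2 scale (SE) did not pass the test (adjusted p = 0.067). It passed in 7 of the 17 alternatives, among them the length and GC corrections and the fit without DMSO replicate 3 (0.15, adjusted p = 0.026). NUP62CL, named for its likeness to the end of NUP62, was at 23.1, 23.4 and 26.8 CPM in DMSO and 26, 30.9 and 31.7 CPM in FT671. Its groups overlapped, its log2 fold change of 0.30 ± 0.12 (SE) passed narrowly (adjusted p = 0.0406), and 11 of the 17 alternatives lost the call, among them the fits without DMSO replicate 1 or 2 or FT671 replicate 2 or 3. NUP210L was not tested, with 0 to 8 counts per library. Over all nucleoporins, 3 fell (13.6%), 8 rose (36.4%) and 11 were not called, beside 26.5% lower and 23.6% higher of all genes. Their median log2 fold change was 0.10.

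**Figure D2:**
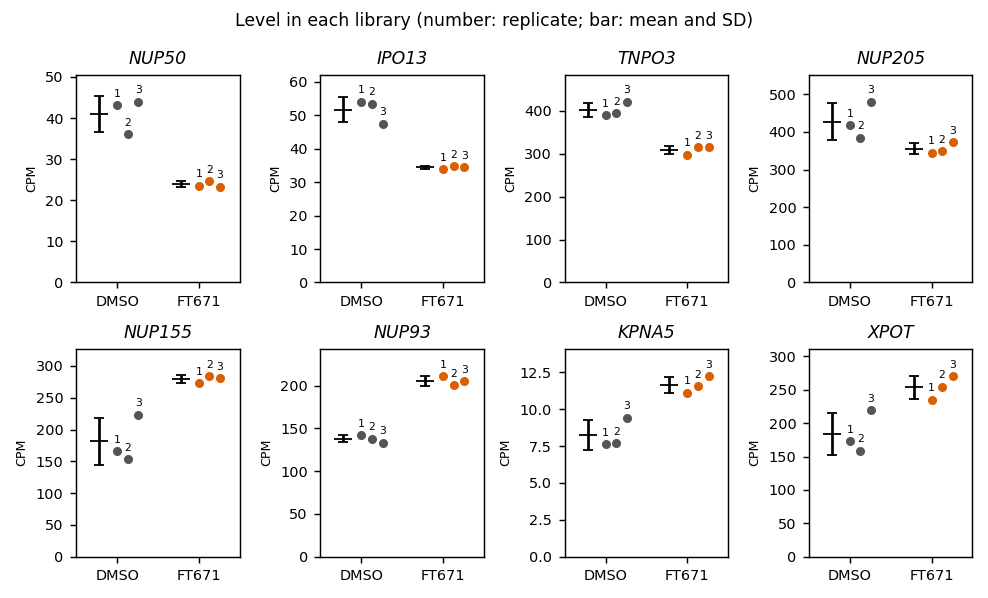
CPM (y axis, from 0) of 8 called members in each DMSO (grey) and FT671 (orange) library, with the replicate number above each point and the mean and SD to the left. In all 8 the groups do not overlap, and DMSO replicate 3 is the highest DMSO library in all but IPO13 and NUP93.

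Importin alpha adaptors bind the classical nuclear localization signal and hand the cargo to importin beta. KPNA5 was the only one of the 6 tested that was called (16.7% higher and 0% lower, beside 23.6% and 26.5% of all genes). KPNA5 (chr6:116681187-116741867) was at 7.62, 7.69 and 9.43 CPM in DMSO and 11.1, 11.5 and 12.2 CPM in FT671. Although it had the lowest level of all members tested, the groups did not overlap, and it rose by 0.54 ± 0.15 on the log2 scale (SE, adjusted p = 0.00916). The call was lost only without FT671 replicate 3 (adjusted p = 0.055). KPNA2 (chr17:68035636-68047364), the adaptor with the highest level per length, was at 313, 307 and 308 CPM in DMSO and 272, 295 and 305 CPM in FT671. All FT671 libraries were lower, by a log2 fold change of -0.09 (95% interval -0.24 to 0.06, adjusted p = 0.29), which is not a call. KPNA4 was not called at 0.21 (adjusted p = 0.098), but passed in 6 of the 17 alternatives. Among these were the replicate block, the length and GC corrections and the fit without DMSO replicate 3 (0.34, adjusted p = 3.19e-05). KPNA1, KPNA3 and KPNA6 lay between -0.05 and -0.02. KPNA7 had no read in any library, which allows up to 3 counts, or 0.211 to 0.659 CPM.

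As shares of the summed importin alpha level per kilobase of exon, KPNA2 made up 37.9% to 43% in DMSO and 38.5% to 39.9% in FT671, and KPNA6 made up 27.1% to 27.3% and 26.1% to 26.9%. The share of KPNA4 went from 13.1% to 15.5% in DMSO to 16.0% to 16.5% in FT671, and that of KPNA5 from 0.660% to 0.736% to 0.978% to 1.02%. The shares of KPNA4, KPNA5 and KPNA6 did not overlap between the groups, with those of KPNA4 and KPNA5 higher and that of KPNA6 lower in FT671. With the length of the canonical transcript in place of all exons, KPNA2 made up 66.2% to 70.9% in DMSO, so the size of these shares depends on the length used. The shares of KPNA6 then overlapped, at 12.2% to 12.9% in DMSO and 12.1% to 12.6% in FT671.

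The importin beta family had 2 falling (20%) and 3 rising genes (30%) among the 10 tested, beside 26.5% lower and 23.6% higher of all genes. KPNB1, importin beta itself and the partner of all importin alpha adaptors, was at 957, 917 and 996 CPM in DMSO and 929, 941 and 978 CPM in FT671. Its groups overlapped and its log2 fold change was -0.01, with a 95% interval from -0.15 to 0.13. IPO13 (chr1:43946950-43968022) carries cargo in both directions, UBC9 and exon junction proteins inward and the translation factor eIF1A outward. It was at 54.1, 53.5 and 47.5 CPM in DMSO and 34.0, 34.8 and 34.5 CPM in FT671. The 3 FT671 libraries were nearly equal and all below DMSO, and the level fell by 33.7% (log2 fold change -0.59 ± 0.10 SE, adjusted p = 0.00018). TNPO3, the importer of serine- and arginine-rich splicing factors, fell from a mean of 401 ± 17.1 to 309 ± 9.62 CPM (SD, n = 3 each). Every FT671 library was below DMSO (log2 fold change -0.38, adjusted p = 0.0004).

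Among the rising receptors of this family, TNPO2 had the smallest adjusted p. TNPO2 and its paralog TNPO1 import RNA-binding proteins such as hnRNP A1. TNPO2 was at 117 ± 3.61 CPM in DMSO and 160 ± 1.88 CPM in FT671 (SD, n = 3 each), and its log2 fold change was 0.45 (adjusted p = 0.000125). TNPO1 was at 205 ± 22.2 CPM in DMSO and 185 ± 6.64 CPM in FT671 and was not called (-0.14, adjusted p = 0.16), although all FT671 libraries were below DMSO. It passed as lower in 2 of the 17 alternatives, the GC correction (-0.18, adjusted p = 0.011) and the GC correction with the replicate block. The log2 ratio of TNPO2 to TNPO1 rose from -0.80 ± 0.20 to -0.21 ± 0.07 (SD, n = 3 each, exact permutation p = 0.1, adjusted p = 0.13). All FT671 libraries were above DMSO for TNPO2 and below DMSO for TNPO1, so this ratio could not overlap. The pair was chosen after its values were seen, and its test adds no support. IPO8 and IPO7, paralogs whose cargoes include SMAD proteins and, for IPO7, ribosomal proteins, rose by 0.36 (adjusted p = 0.0113) and 0.27 (adjusted p = 0.0425). IPO8 was not called without DMSO replicate 1 or FT671 replicate 3. The groups of IPO7 overlapped through DMSO replicate 3. Of the fits that left out 1 library, only the fit without DMSO replicate 3 called IPO7 (0.41, adjusted p = 2.19e-06). The ratio of IPO8 to IPO7 differed by 0.08 on the log2 scale (exact permutation p = 0.3, adjusted p = 0.3). IPO5, IPO9 and IPO11 were not called, at log2 fold changes of 0.06, -0.14 and -0.14. IPO4 had 0 to 5 counts per library and was not tested. A same-strand gene (ENSG00000259522) covers 68.7% of its exon length and had no reads in any library, and whether reads on both genes were left out of the counting was not tested.

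Of the 5 exportins among the members, XPOT was the only called member (20% higher and 0% lower, beside 23.6% and 26.5% of all genes). XPOT (chr12:64404392-64451125), which carries transfer RNA to the cytoplasm, was at 173, 159 and 219 CPM in DMSO and 235, 255 and 271 CPM in FT671. All FT671 libraries were above all DMSO libraries, and XPOT rose by 0.48 ± 0.10 on the log2 scale (SE, adjusted p = 0.00169). XPO1, the exporter of proteins with a leucine-rich export signal, was at 193, 194 and 273 CPM in DMSO and 199, 178 and 186 CPM in FT671. The difference of -0.22 (95% interval -0.47 to 0.02, adjusted p = 0.12) rested on DMSO replicate 3, and without that library it was -0.05. XPO1 passed 0.05 as lower in 3 of the 17 alternatives: no filter, the GC correction and the GC correction with the replicate block. XPO7, a carrier with many kinds of cargo and the exportin with the highest level per length, was at 314, 306 and 345 CPM in DMSO and 310, 324 and 334 CPM in FT671. The groups overlapped, with a log2 fold change of 0.01 and a 95% interval from -0.15 to 0.16. XPO4 and XPO6, exporters of eIF5A and of actin with profilin, had log2 fold changes of 0.19 and -0.03 and were not called, but XPO4 passed without DMSO replicate 3 (adjusted p = 0.0081). Over all transport receptors, 2 fell (9.52%), 5 rose (23.8%) and 14 were not called, beside 26.5% lower and 23.6% higher of all genes. Their median log2 fold change was -0.02.

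**Figure D3:**
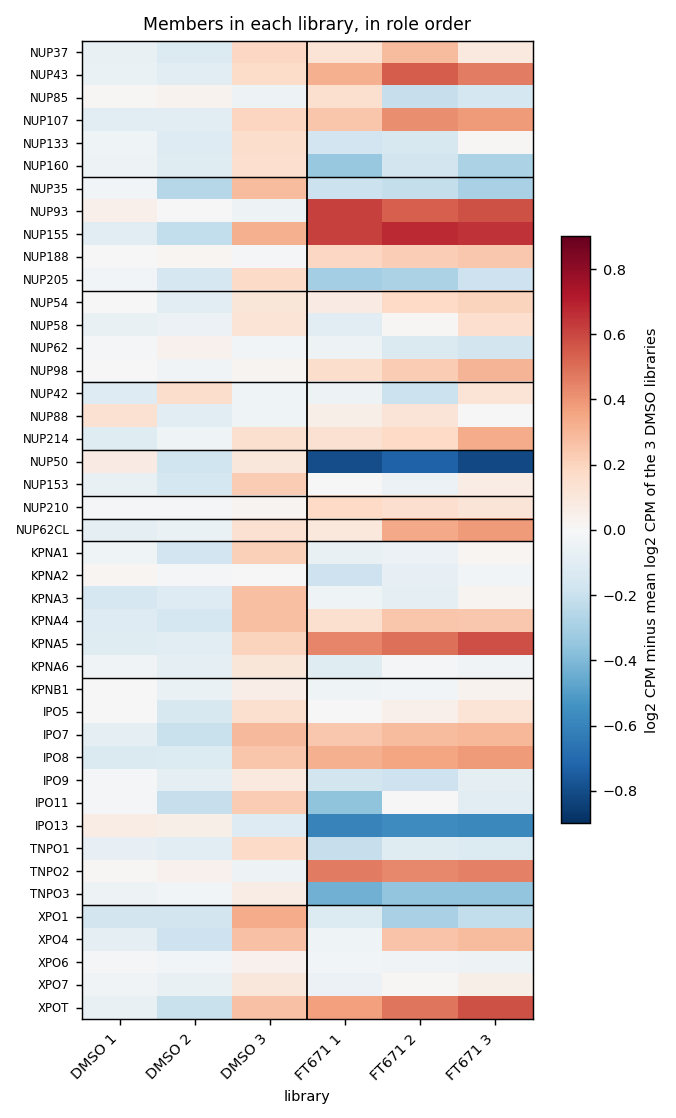
Log2 CPM of each member tested (rows, in role order) in each library (columns), minus the mean log2 CPM of the 3 DMSO libraries; red is higher and blue lower. NUP93 and NUP155 are red and NUP50 and IPO13 blue in every FT671 library, and the DMSO 3 column is red for most members.

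Across all 43 members tested, every FT671 library was below every DMSO library for 10 (23.3%) and above for 11 (25.6%), while 22 overlapped. Over all genes tested these shares were 30.3% below and 26.8% above. Separation without overlap did not always mean a call: XPO6, NUP62, KPNA2, IPO9 and TNPO1 lay wholly below DMSO and NUP210 wholly above, with log2 fold changes of -0.14 to 0.15 that did not pass the test. In the other direction, NUP214, NUP62CL and IPO7 were called higher although their groups overlapped. Without DMSO replicate 3, the nucleoporins had 3 lower and 11 higher calls and the receptors 2 lower and 7 higher, read against the 27.5% lower and 25.7% higher of all genes in that fit.

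The members were longer than most genes, with a median merged exon length of 7621 bases against 4743.5 bases over the genes tested. After a correction of each library for gene length, 3 members were lower (NUP50, IPO13 and TNPO3) and 17 higher, beside 23.9% and 27.7% of all genes. Lower members then made up 15.0% of the calls, against 27.8% without the correction. Over all genes the share of lower calls went from 53.0% to 46.4%, and after the correction the median log2 fold change was 0.15 over the members, against 0.04 over all genes.

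Levels per length, in CPM per kilobase of merged exons, spanned a wide range. In DMSO, KPNB1 was highest at 92.8 ± 3.84, followed by TNPO3 at 85.8 ± 3.66, NUP205 at 56.1 ± 6.4, NUP214 at 54.4 ± 5.08 and NUP210 at 53.5 ± 0.834 (SD, n = 3 each). The last 3 did not differ beyond their SDs. At the other end, NUP35 was at 3.58 ± 0.686, NUP54 at 3.09 ± 0.227 and KPNA5 at 0.710 ± 0.088, and NUP35 and NUP54 also did not differ beyond their SDs. In FT671, TNPO3 was at 66.0 and NUP214 at 63.1, and KPNB1 remained highest at 92.1. With canonical transcript lengths the order in DMSO was NUP214 at 178, KPNB1 at 158, KPNA2 at 157, NUP210 at 99.0 and TNPO3 at 92.4. The place of a gene in this order therefore depends on which annotated exons are counted in its length.

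Summed by role, levels per kilobase of merged exons were 116 to 137 for the inner ring in DMSO and 135 to 140 in FT671, and 95.8 to 113 and 107 to 115 for the Y complex. The channel group was at 56.4 to 57.8 in DMSO and 59.6 to 62.7 in FT671, without overlap. The pore membrane group, nearly all NUP210, did not overlap either, at 53.0 to 54.6 and 58.1 to 60.6. The cytoplasmic side was at 60.4 to 69.8 and 69.6 to 78.8 and the nuclear basket side at 44.7 to 58.1 and 46.5 to 49.9, both with overlap. Importin alpha adaptors summed to 97.1 to 110 and 96.0 to 104, the importin beta family to 295 to 332 and 289 to 305, and the exportins to 105 to 124 and 116 to 124. The sums for the inner ring and the receptors overlapped between the groups, although single genes within them did not.

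**Figure D4:**
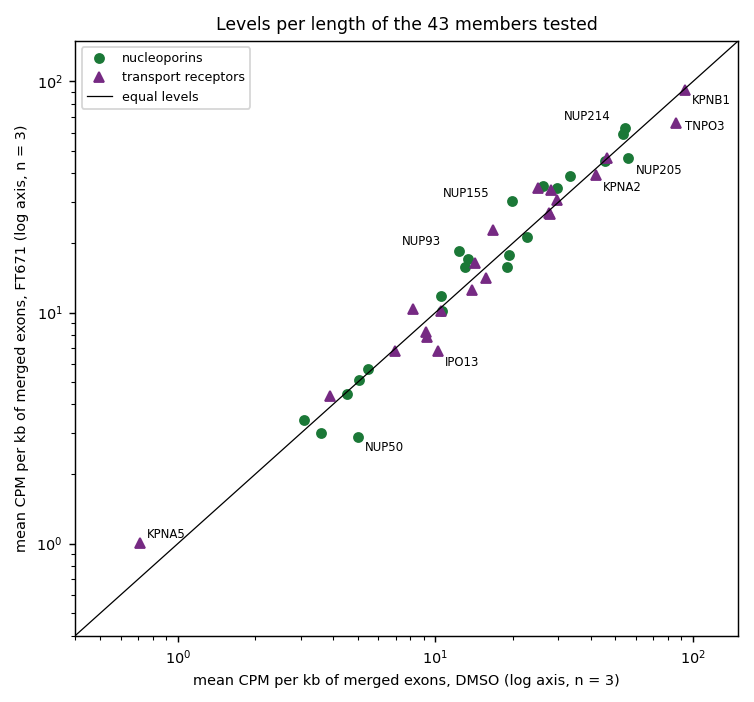
Mean level per kilobase of merged exons in DMSO (x axis, log) and FT671 (y axis, log) for the 43 members tested, nucleoporins as circles and receptors as triangles, with a line of equal levels. Most members lie near the line; NUP50 and IPO13 lie below it and NUP155, NUP93 and KPNA5 above.

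Other genes of the pore and of the transport cycle, listed by role, were higher or not called with a single exception. Of 28 such genes, 27 were tested, and 14 were higher (51.9%) and 1 lower (3.70%) at 0.05, beside 23.6% and 26.5% of all genes. The list was chosen with earlier results of these data known, and the part of that choice in these shares was not tested. Their median log2 fold change was 0.26. Every FT671 library was above DMSO for 15 of them (55.6%) and below for 3 (11.1%), beside 26.8% and 30.3% of all genes. RANBP17 was not tested, with at most 1 count per library.

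The largest rises were those of DDX19A, RCC1 and NXT2. DDX19A, a helicase that releases messenger RNA at the cytoplasmic side of the pore, was at 23.3, 26.3 and 27 CPM in DMSO and 40.9, 41.1 and 41.0 CPM in FT671 (log2 fold change 0.70 ± 0.10 SE, adjusted p = 7.78e-05). Its near-identical neighbor DDX19B had a log2 fold change of 0.14 and was not called, and reads shared by the pair may be split or lost in the counting. A same-strand gene (ENSG00000260537) without reads in any library covers 23.9% of the exon length of DDX19A. An opposite-strand lncRNA (ENSG00000285710) covers 7.2% and rose by 0.66. NXT2, a cofactor of the messenger RNA exporter NXF1, was at 8.17, 8.70 and 9.61 CPM in DMSO and 12.2, 14.8 and 13 CPM in FT671 (0.62 ± 0.15 SE, adjusted p = 0.00312). RCC1, the chromatin-bound exchange factor that loads RAN with GTP, was at 202, 200 and 193 CPM in DMSO and 321, 296 and 284 CPM in FT671 (0.60 ± 0.07 SE, adjusted p = 1.27e-05). In all 3 genes the groups did not overlap. RCC1 shares 6.22% of its exon length with the same-strand RNA gene SNHG3, which rose by 0.49.

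Within the RAN cycle, 4 of 7 genes rose (57.1%, beside 23.6% of all genes). Beside RCC1 these were RAN itself (0.32, adjusted p = 0.00145), RANBP1, which helps GTP hydrolysis on RAN (0.40, adjusted p = 0.000203), and NUTF2, the importer of RAN (0.40, adjusted p = 0.000712). The opposite-strand gene TRMT2A covers 8.51% of the exon length of RANBP1 and also had a log2 fold change of 0.40. RANGAP1, RANBP3 and RANGRF were not called, at 0.16, -0.19 and -0.01. The opposite-strand gene SLC25A35 covers 79.9% of the exon length of RANGRF and had a log2 fold change of 0.27. Among pore components outside the symbol rule, 7 of 14 rose (50%, beside 23.6% of all genes). TPR, the filament protein of the nuclear basket, rose by 0.51 (adjusted p = 0.0033), AAAS by 0.41, SEH1L by 0.37, the membrane nucleoporins NDC1 and POM121 by 0.36 and 0.25, and SEC13 by 0.26. SEH1L and SEC13 belong to the Y complex. POM121C, a near-identical copy of POM121, was at -0.06 and was not called. CSE1L, which returns importin alpha to the cytoplasm, and NXF1 rose by 0.30 (adjusted p = 0.033) and 0.28 (adjusted p = 0.0205). CSE1L, NXF1 and POM121 each lost the call without 4 of the 6 libraries in turn, and NDC1 without 3.

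AHCTF1 was the only gene of these 27 that fell. Its product, ELYS, brings the Y complex to chromatin when pores form after mitosis. AHCTF1 was at 44.7, 36.3 and 50.6 CPM in DMSO and 24.9, 27.4 and 33.2 CPM in FT671. All FT671 libraries were below DMSO, and the log2 fold change was -0.58 ± 0.14 (SE, adjusted p = 0.00292). The uncalled pore components RANBP2, GLE1, DDX19B, RAE1, TMEM33 and POM121C ranged from -0.06 to 0.14, and the uncalled carriers NXT1, PHAX and SNUPN were at -0.18, 0.21 and 0.31. Without DMSO replicate 3 the list had 16 higher and 2 lower calls, beside 25.7% and 27.5% of all genes.

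**Figure D5:**
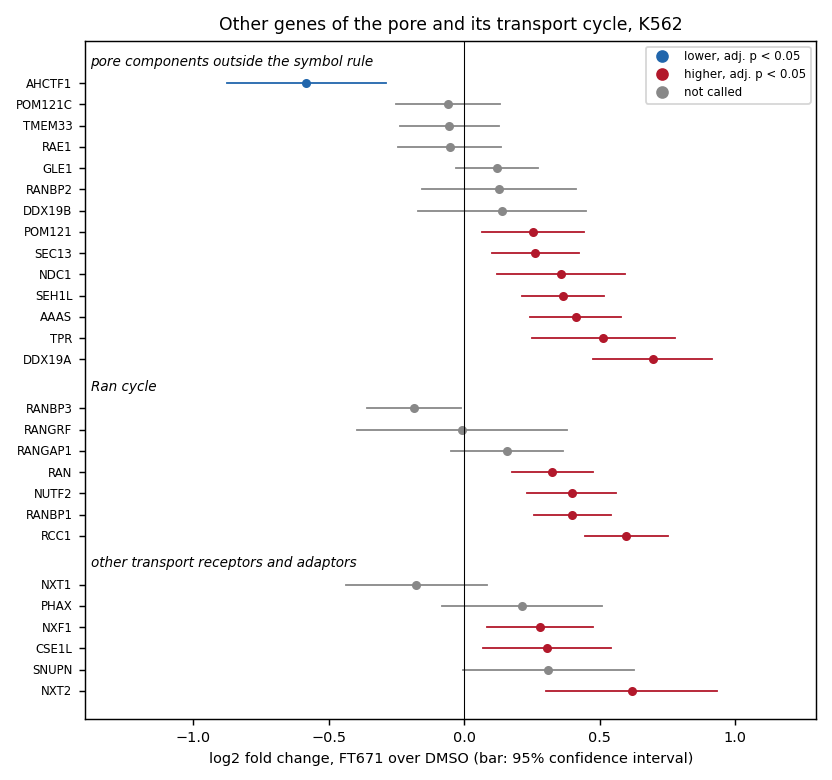
Log2 fold change of FT671 over DMSO (x axis) with 95% confidence intervals for 27 other pore and transport genes (y axis, by role). Of these, 14 are red (higher at an adjusted p of 0.05), from POM121 at 0.25 to DDX19A at 0.70, and AHCTF1 at -0.58 is blue (lower).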

How the data were processed

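Total RNA of K562 cells treated with DMSO or 10 μM FT671 for 48 h (3 libraries each) was sequenced from both ends after removal of ribosomal RNA. The authors aligned reads to hg38 with STAR and deposited raw read counts per gene; the STAR version, annotation and strand setting are not given in the sources used here. Of 60609 genes, 60295 were matched to GENCODE release 44 by identifier (the 314 others held 0.0609% of counts). The 6 ChIP samples were not analysed here.

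Genes were filtered with filterByExpr (13895 kept), scaled by TMM and compared with edgeR 4.0.16's quasi-likelihood test without covariates (R 4.3.3, Python 3.11.15). Two-sided p-values were adjusted (Benjamini-Hochberg) over all genes. SEs are the absolute log2 fold change over the square root of F. CPM use TMM-scaled library sizes. Replicates differed by more than counting error (chi-square per degree of freedom 2.07 to 8.73). Exact permutation tests (SciPy 1.17.1) were two-sided.

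The members, role groups and other pathway genes were chosen with earlier results of these data known. Values in every library are given for called members with a log2 fold change of at least 0.5 in size and no overlap, for the member with the largest change and the one with the highest level per length of each role group, and for the pathway genes with the 3 largest rises and falls; XPO1, chosen after its values were seen, was added. The fit was tested on simulated counts. Alternatives were DESeq2 (1.42.0) size factors and Wald test, library totals, other filters (none, or at least 10 counts in every library), the replicate number as a block, loess corrections (span 0.3) for length and GC content, thinning to the smallest total and leaving out each library.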

Additional observations from a re-analysis of the deposited data

How the results depend on the processing

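Under 17 alternatives, 9 of the 18 called members kept their call, and 10 of the uncalled members passed 0.05 under at least 1. Depth limits the low members: KPNA5 had the fewest counts of those tested. Labels give both groups the replicate numbers 1 to 3, and the study describes the RNA-seq as coming from 3 independent experiments. Same-numbered libraries did not deviate together (correlations 0.11, -0.06 and 0.14), so the numbers were not taken as pairs. Pairing of the libraries in another order was not tested. With the replicate block, 5 members were lower and 13 higher at 0.05, as without it, beside 27.1% and 24.3% of all genes. At 1e-05 the block gave 0 and 1, beside 5.42% and 2.89% of all genes.

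Percentages in brackets are the shares of all genes in the same fit. Members lower at 0.05 numbered 3 with the gene length correction (23.9%) and 3 with the block as well (24.5%). They numbered 3 to 5 when 1 library was left out (21.4% to 27.5%), with 3 without FT671 replicate 1 (22.8%). Members higher then numbered 6 to 18 (18.4% to 25.7%), with 6 without FT671 replicate 3 (18.9%) and 18 without DMSO replicate 3 (25.7%). Scaling by library totals gave 10 higher (21.4%), no filter 9 higher (9.74%) and 6 lower (12.8%), the GC correction 15 higher (29.1%) and 7 lower (26.9%). At 1e-05, lower members numbered 3 without a filter (5.61%), 1 with DESeq2's Wald test (8.44%) and 1 with the GC correction (7.67%). Leaving out 1 library gave 0 to 2 (0.548% to 10.1%). Higher members at 1e-05 numbered 1 with DESeq2 size factors (2.09%), 3 without a filter (3.12%) and 3 with the Wald test (6.33%). The length correction gave 3 (3.73%), or 4 with the block (6.30%), and the GC correction 5 (6.92%), or 5 with the block (6.69%). Fits that left out 1 library gave 0 to 8 (0.255% to 7.42%). The lower pathway genes at 0.05 numbered 2 with library totals (28.3%) and 1 to 2 when 1 library was left out (21.4% to 27.5%). Without a filter 31316 genes were tested; the cause of the other moves was not tested.

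The members' median log2 fold change was 0.15 with the length correction (0.15 with the block) and -0.02 to 0.10 when 1 library was left out. That of the other pathway genes was 0.23 with library totals, 0.23 without a filter, 0.33 with the length correction (0.35 with the block), 0.33 with the GC correction (0.33 with the block) and 0.22 to 0.32 when 1 library was left out.

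The sign changed under some alternative for 15 members, all uncalled, with main log2 fold changes from -0.14 (IPO9 and TNPO1) to 0.06 (IPO5). Of these members, TNPO1 passed 0.05 as lower with the GC correction (adjusted p = 0.011) and IPO9 as lower with thinning (adjusted p = 0.033). IPO5 passed as higher with the length correction (adjusted p = 0.017). With the length correction, and then with the block as well, the log2 fold changes were 0.00046 and 0.0095 for NUP85, 0.016 and 0.0058 for NUP133, 0.024 and 0.0012 for NUP42, 0.11 and 0.10 for KPNA1, 0.032 and 0.031 for KPNA2, 0.028 and 0.0072 for KPNA3, 0.073 and 0.071 for KPNA6, 0.15 and 0.15 for KPNB1, 0.015 and 0.013 for IPO9, 0.012 and 0.0089 for TNPO1, and 0.087 and 0.088 for XPO6. With the GC correction, and with the block as well, they were -0.022 and -0.025 for NUP58, 0.029 and 0.029 for KPNB1, and 0.027 and 0.024 for XPO6. DESeq2 size factors gave 0.0013 for KPNA3 and 0.010 for KPNB1, and the Wald test 0.010 for KPNB1. Library totals gave -0.034 for NUP153 and -0.026 for XPO7, no filter -0.036 and -0.030, thinning -0.023 and -0.023, and at least 10 counts in every library -0.0016 for NUP153. When 1 library was left out, the ranges were -0.036 to 0.098 for NUP58, -0.13 to 0.075 for NUP42, -0.071 to 0.11 for NUP153, -0.10 to 0.070 for KPNA1, -0.10 to 0.11 for KPNA3, -0.034 to 0.012 for KPNB1, -0.0069 to 0.12 for IPO5 and -0.020 to 0.052 for XPO7. Levels per canonical transcript length were added after the data were seen.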
